A study of Mus musculus with 8 samples.

Results

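The neuromuscular junction genes described here are 10 genes whose products build or serve the synapse between a motor nerve and a muscle fibre. They are Chrna1, Chrnb1, Chrnd, Chrne and Chrng (subunits of the muscle acetylcholine receptor), Musk, Lrp4, Dok7 and Rapsn (the machinery that gathers the receptor under the nerve ending) and Ache (acetylcholinesterase). The genes were listed by name, and a probe belonged to a gene when it was not a control spot and carried one of the gene's RefSeq accessions. This gave 12 of the 55681 probes on the array, for 10 of the 20660 genes that could be named. Chrna1 and Ache had 2 probes each, and each of the other 8 genes had 1.

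At the neuromuscular junction the nerve releases acetylcholine, which opens a channel made of alpha, beta, delta and epsilon subunits in adult muscle, with gamma in place of epsilon before innervation and again after loss of the nerve. Agrin from the nerve binds LRP4, which activates the kinase MuSK, and DOK7 and rapsyn act with it to hold the receptors in dense clusters, while acetylcholinesterase in the cleft ends each signal by cleaving the transmitter. In an innervated fibre the nuclei under the nerve ending transcribe the receptor genes far more than the other nuclei of the fibre, and electrical activity holds these genes down elsewhere.

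The study asked how muscle RNA differs in mice with a single working copy of Eif6, which encodes a translation factor needed to make the large ribosomal subunit. Groups were Eif6+/- mice, called Het, and their Eif6+/+ (WT) littermates, all male C57BL6 mice of 8 to 16 weeks with no treatment. The allele was lacking throughout the body, in motor neurons and Schwann cells as well as in muscle. Frozen gastrocnemius gave 4 arrays and tibialis anterior (TA) gave another 4, each array carrying 1 Het and 1 WT mouse of like age joined at random, here called pairs 1 to 4 of each muscle.

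By the labels, Het RNA carried the dye Cy5 and WT RNA the dye Cy3 on all 8 arrays, so dye and genotype cannot be told apart within a muscle. The study's methods name Cy3 labelling alone for its mouse arrays, which leaves the dyes known from the labels and files only. A dye effect of a single probe that is alike on all arrays cancels in the difference between muscles and in a comparison of both muscles in the same dye. The muscles also sat in different rows of the same slide, so that row and muscle cannot be separated. Every array held 62976 spots, of which 59305 were not controls. The median intensity was 46 to 61 in Cy3, over a background of 20 to 22, and 60 to 74 in Cy5, over a background of 41 to 44. The share of probes well above their background was 38.7% to 46% in Cy3 and 43.6% to 48.6% in Cy5, with 0 saturated spots. Precision was limited by having 4 arrays a muscle.

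As a check of the labels, the brighter Eif6 probe had log2 ratios (Het over WT) of -0.97, -1.15, -0.89 and -1.06 in gastrocnemius pairs 1 to 4 and -1.22, -1.03, -0.95 and -0.80 in TA pairs 1 to 4, adjusted p = 0.0239 and 0.0108, although where that probe lies relative to the inactivated stretch is not known here. The tissue carried its markers: all 9 fast fibre markers and all 7 slow fibre markers were well above background in both dyes on all 8 arrays, as were all 10 Schwann cell markers. The 9 listed as fast include Mb, the myoglobin gene, which is not particular to fast fibres. Motor neuron and axon markers were seen in part. Of 12 listed, Nefl, Nefm, Nefh, Syt2 and Isl1 were well above background on 0 of 8 arrays in either dye, Slc18a3 on 1 in Cy3 and 2 in Cy5, Slc5a7 on 1 and 0, and Mnx1 had no named probe. Chat, which makes the nerve's transmitter, was well above background on 3 of 8 arrays in Cy3 and 8 of 8 in Cy5, Prph on 5 and 4, and Snap25 and Stmn2 on all 8 in both dyes. The members' RNA was therefore read from whole muscle, where fewer cells or nuclei of a type and less RNA per cell cannot be told apart.

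The first question was whether the junction genes differed between Het and WT in each muscle. In gastrocnemius 2 members fell in Het, Ache and Chrne, and none rose, and in TA 1 fell, Ache, and none rose. A gene was called at a Benjamini-Hochberg adjusted p under 0.1 in limma, over all probes that were bright enough. Of the 10 genes 9 were tested in each muscle, and Chrng was too dim to pass the filter. The 2 of 9 called in gastrocnemius (22.2%) stand beside 15.4% of all 12601 genes tested, of which 9.87% were higher in Het and 5.54% lower. The 1 of 9 called in TA (11.1%) stands beside 16.3% of 12375 genes, 8.99% higher and 7.29% lower. Single arrays weighed heavily on these counts: without gastrocnemius pair 3 or pair 4 the test called 0 genes and 0 members there. In TA it called 68 genes and 0 members without pair 1, 533 and 0 without pair 2, 1185 and 1 without pair 3, and 2018 and 2 without pair 4.

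Members that were not called lay on both sides of 0. Mean log2 ratios of the 9 tested members ran from -0.68 to 0.32 in gastrocnemius, with 5 below 0, and from -0.45 to 0.26 in TA, with 7 below 0. Their median was -0.16 in gastrocnemius, beside 0.02 for all genes, and -0.23 in TA, beside 0.02. In each muscle 4 members (Chrnb1, Rapsn and Ache in both, with Chrne in gastrocnemius and Chrnd in TA) had all 4 pairs below 0, as did 13.9% and 15.6% of all genes in gastrocnemius and TA. At an unadjusted p under 0.05 there were 4 of 9 members in gastrocnemius and 5 of 9 in TA, beside 3654 of 12601 and 3599 of 12375 genes (29% and 29.1%). The plot of log2 ratios by array shows how closely the 4 pairs of each gene lay: tight for Chrnb1, Rapsn and the gastrocnemius pairs of Ache, and wide for Chrna1, Chrnd and Musk in gastrocnemius.

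**Figure D1:**
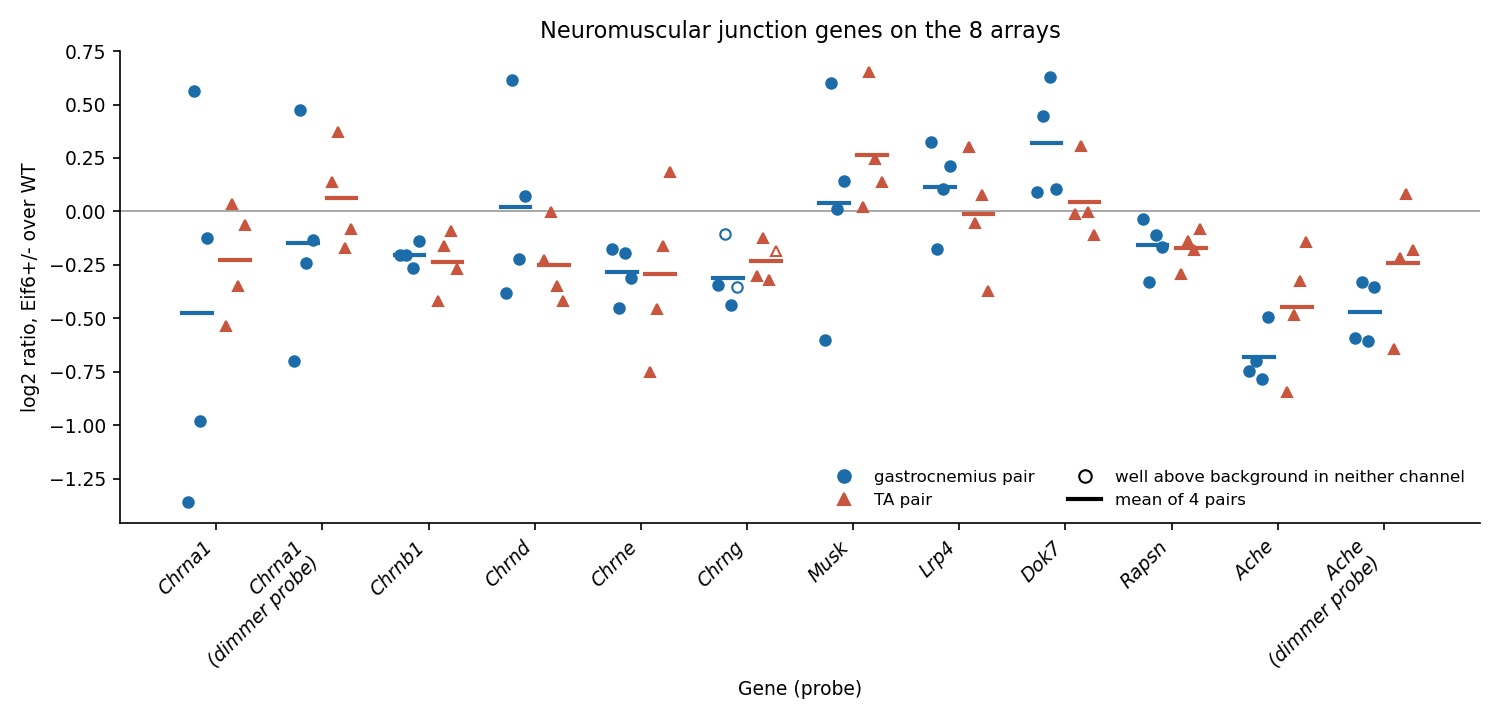
Log2 ratio of Eif6+/- over WT (vertical axis) on each of the 8 arrays for the 12 probes of the 10 genes (horizontal axis), with gastrocnemius pairs as blue circles, TA pairs as red triangles, the mean of 4 pairs as a bar, and open symbols where the probe was well above background in neither dye. The brighter Ache probe lies below 0 in all 8 pairs, while the gastrocnemius pairs of Chrna1 spread from -1.36 to 0.56.

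Receptor subunits come first. The promoters of Chrna1 and Chrne are shown because Chrna1 varied most of all members between the gastrocnemius pairs and Chrne is the subunit that fell. They run from 250 bases before the transcription start to 50 after it, in the RefSeq promoter table for build GRCm38.p6, which held 7 of the 10 members (Chrnd, Rapsn and Lrp4 had no entry). Capitals mark the E-box CANNTG, the letters that myogenic factors such as myogenin bind, and the N-box CCGGAA, the letters that GABP binds, each searched on both strands. Of 32851 promoters in the table, 72.3% hold an E-box and 14.9% an N-box, so that a match is a description and not a site. Chrna1 (minus strand, chr2:73580289-73580588) holds 3 E-boxes and no N-box, and Chrne (minus strand, chr11:70619145-70619444) holds 1 of each.
Chrna1: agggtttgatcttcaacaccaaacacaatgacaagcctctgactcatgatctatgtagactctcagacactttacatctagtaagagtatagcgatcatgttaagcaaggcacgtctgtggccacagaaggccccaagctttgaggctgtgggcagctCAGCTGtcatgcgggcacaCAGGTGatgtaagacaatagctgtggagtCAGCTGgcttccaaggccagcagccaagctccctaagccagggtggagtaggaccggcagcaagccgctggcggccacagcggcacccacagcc
Chrne: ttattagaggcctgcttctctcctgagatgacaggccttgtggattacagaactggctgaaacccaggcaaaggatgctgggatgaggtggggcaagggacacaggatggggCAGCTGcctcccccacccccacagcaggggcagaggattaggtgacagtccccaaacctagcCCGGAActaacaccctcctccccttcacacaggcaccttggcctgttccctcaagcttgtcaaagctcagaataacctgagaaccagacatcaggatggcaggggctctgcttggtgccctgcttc

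Chrne encodes the epsilon subunit, which marks the adult receptor. Its normalized log2 intensity in gastrocnemius pairs 1 to 4 was 7.11, 8.03, 7.80 and 7.26 in WT and 6.94, 7.58, 7.60 and 6.95 in Het. Every Het mouse lay below its own WT partner, by log2 ratios of -0.17, -0.45, -0.20 and -0.31, although the groups overlapped, since pairs 2 and 3 were high in both genotypes. The mean was -0.28 ± 0.127 (SD, n = 4 pairs), 1.22-fold lower in Het, with SE 0.0786 and adjusted p = 0.0786. The call ended without pair 2 (adjusted p = 0.175), pair 3 (0.188) or pair 4 (0.242), or at a threshold of 0.05, within a range of 0.0661 to 0.242 over 14 alternatives, of which 10 kept it. In TA the levels were 8.18, 7.56, 7.40 and 7.20 in WT and 7.43, 7.11, 7.24 and 7.39 in Het. Pairs 1 to 3 went down and pair 4 went up, with log2 ratios of -0.75, -0.45, -0.16 and 0.19. The TA mean of -0.29 ± 0.400 (SD, n = 4 pairs) was close to the gastrocnemius value but was not called (adjusted p = 0.198). Without TA pair 4 it was -0.45 and called (adjusted p = 0.0611, within a range of 0.0611 to 0.59 over 14 alternatives).

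Chrna1 encodes the alpha subunit, which carries the acetylcholine binding site. Its WT levels in gastrocnemius pairs 1 to 4 were 10.53, 9.60, 10.87 and 9.18, and its Het levels were 9.18, 10.16, 9.89 and 9.06. Pairs 1 and 3 were far lower in Het, pair 2 was higher and pair 4 was nearly level, with log2 ratios of -1.36, 0.56, -0.98 and -0.12, so the pairs did not share a direction. Their SD of 0.864 was larger than that of 99% of genes tested in gastrocnemius, where the median SD was 0.175. The mean of -0.47 was not called (SE 0.285, adjusted p = 0.332). Without gastrocnemius pair 2 it was -0.82 and called (adjusted p = 0.0901, within 0.0901 to 0.693 over 14 alternatives). The swing lay in both genotypes, since the WT levels alone spanned 9.18 to 10.87 and the Het levels 9.06 to 10.16. In TA the levels were nearer each other, at 10.10, 9.81, 9.94 and 9.75 in WT and 9.57, 9.85, 9.59 and 9.68 in Het. TA log2 ratios were -0.53, 0.04, -0.35 and -0.06, with a mean of -0.23 ± 0.262 (SD, n = 4 pairs) and adjusted p = 0.186. The dimmer Chrna1 probe had the same order of pairs in gastrocnemius, with the lowest ratio in pair 1 (-0.70) and the highest in pair 2 (0.47), and means of -0.15 in gastrocnemius and 0.06 in TA (adjusted p = 0.608 and 0.697).

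Chrnb1 encodes the beta subunit, whose phosphorylation ties the receptor to its scaffold. It was below 0 in all 8 pairs, with log2 ratios of -0.20, -0.20, -0.26 and -0.14 in gastrocnemius and -0.42, -0.16, -0.09 and -0.27 in TA. The gastrocnemius pairs were among the tightest on the array, with an SD of 0.0507 that only 2.75% of genes went under. Neither mean passed the threshold: -0.20 in gastrocnemius (SE 0.0692, adjusted p = 0.124, within 0.083 to 0.321 over 14 alternatives) and -0.23 in TA (SE 0.0775, adjusted p = 0.1, within 0.0838 to 0.341).

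Chrnd encodes the delta subunit, and its gene lies beside Chrng on chromosome 1 (GRCm38.p6, bases 87190597 to 87200070 and 87205811 to 87211835). Chrnd had log2 ratios of -0.38, 0.62, -0.22 and 0.07 in gastrocnemius, where pair 2 was up and pair 1 down as for Chrna1. In TA they were -0.23, -0.004, -0.35 and -0.42, all below 0 but nearly level in pair 2. The gastrocnemius mean of 0.02 ± 0.438 (SD, n = 4 pairs) had an adjusted p of 0.945, and the TA mean of -0.25 ± 0.181 (SD, n = 4 pairs) had an adjusted p of 0.105 (within 0.0917 to 0.283 over 14 alternatives).

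Chrng encodes the gamma subunit of the immature receptor and was at the edge of detection. Its probe was well above background on 5 of 8 arrays in WT and on 1 of 8 in Het, so the filter on dim probes kept it out of every comparison. The log2 ratios were -0.34, -0.10, -0.44 and -0.36 in gastrocnemius and -0.30, -0.12, -0.32 and -0.19 in TA. All 8 lay below 0, at intensities near a background that differs between the dyes. With no filter limma put Chrng past the threshold in both muscles (adjusted p = 0.0646 and 0.0644), but with Het at the floor on nearly all arrays and in the other dye, neither a fold nor a fall can be read from it. Its promoter (plus strand, chr1:87205561-87205860) holds 3 E-boxes, as does that of Chrnb1 (chr11:69795888-69796187, minus strand).

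The clustering machinery follows, from the agrin receptor inwards. No gene of it passed the genotype test in either muscle. Musk is shown with its promoter because its log2 ratios moved with those of Chrna1 and its level differed most between the muscles. That promoter (plus strand, chr4:58285712-58286011) holds 3 E-boxes and no N-box.
Musk: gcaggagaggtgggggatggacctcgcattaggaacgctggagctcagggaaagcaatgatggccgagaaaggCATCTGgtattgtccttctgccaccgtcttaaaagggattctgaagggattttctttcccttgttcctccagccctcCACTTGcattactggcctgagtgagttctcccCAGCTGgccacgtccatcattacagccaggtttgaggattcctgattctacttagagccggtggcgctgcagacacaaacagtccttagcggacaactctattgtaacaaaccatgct

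Musk encodes the receptor kinase that starts clustering. Its levels in gastrocnemius pairs 1 to 4 were 9.08, 8.28, 8.55 and 8.42 in WT and 8.48, 8.88, 8.56 and 8.56 in Het. Pair 1 was lower in Het, pair 2 was higher, and pairs 3 and 4 were near level, with log2 ratios of -0.60, 0.60, 0.01 and 0.14. The mean of 0.04 had an SD of 0.495, larger than that of 95.4% of genes, and an adjusted p of 0.913. In TA the levels were 7.47, 7.04, 7.53 and 7.15 in WT and 7.49, 7.69, 7.77 and 7.29 in Het. All 4 TA pairs were above 0, at 0.02, 0.65, 0.24 and 0.14, but the mean of 0.26 ± 0.274 (SD, n = 4 pairs) was not called (adjusted p = 0.147, within 0.104 to 0.405 over 14 alternatives).

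Lrp4, the agrin receptor, was on both sides of 0 in each muscle. Its log2 ratios were 0.32, -0.18, 0.10 and 0.21 in gastrocnemius and 0.30, -0.05, 0.08 and -0.37 in TA. The means of 0.12 ± 0.214 and -0.01 ± 0.279 (SD, n = 4 pairs each) had adjusted p of 0.481 and 0.954.

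Dok7 encodes the adaptor that keeps MuSK active from inside the fibre. In gastrocnemius its levels were 7.35, 7.16, 7.27 and 7.22 in WT and 7.44, 7.61, 7.90 and 7.32 in Het. Each Het mouse lay above its partner, by 0.09, 0.45, 0.63 and 0.11, with pairs 2 and 3 well above pairs 1 and 4. This was the single member with all gastrocnemius pairs above 0, and its mean of 0.32 ± 0.266 (SD, n = 4 pairs) was not called (SE 0.108, adjusted p = 0.121). It lay close to the threshold, since 4 of 14 alternatives called it, among them the one without gastrocnemius pair 1 (0.40, adjusted p = 0.0969, within 0.0661 to 0.351 over the alternatives). In TA the log2 ratios were -0.01, 0.31, 0.00 and -0.11, and the mean of 0.04 ± 0.181 (SD, n = 4 pairs) had an adjusted p of 0.766. Dok7 had 2 promoter entries, of which 1 holds an E-box.

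Rapsn, whose product rapsyn anchors the receptor, was among the steadiest members. Its log2 ratios were -0.03, -0.33, -0.11 and -0.16 in gastrocnemius and -0.29, -0.14, -0.18 and -0.08 in TA. All 8 pairs lay below 0 by small amounts, with means of -0.16 ± 0.125 and -0.17 ± 0.0891 (SD, n = 4 pairs each) and adjusted p of 0.248 and 0.158. None of 14 alternatives called it in either muscle (adjusted p 0.178 to 0.515 in gastrocnemius and 0.127 to 0.435 in TA).

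Ache, the enzyme that clears acetylcholine from the cleft, was lower in Het in both muscles. Its promoter is shown since it is the member that fell in both: it lies on the plus strand at chr5:137288004-137288303 and holds 1 E-box, in capitals, and no N-box.
Ache: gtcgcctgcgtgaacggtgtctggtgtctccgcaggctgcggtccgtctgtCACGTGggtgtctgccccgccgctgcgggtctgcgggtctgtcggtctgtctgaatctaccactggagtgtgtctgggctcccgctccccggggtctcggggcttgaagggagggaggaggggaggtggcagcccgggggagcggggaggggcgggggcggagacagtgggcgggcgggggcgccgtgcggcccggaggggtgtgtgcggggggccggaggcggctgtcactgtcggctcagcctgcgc

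In gastrocnemius pairs 1 to 4 the Ache level was 8.39, 9.0, 9.20 and 8.27 in WT and 7.64, 8.30, 8.41 and 7.78 in Het. Each Het mouse lay below its partner by a like amount, with log2 ratios of -0.74, -0.70, -0.79 and -0.49, while the groups themselves overlapped because pairs 2 and 3 were higher in both genotypes. The mean log2 ratio was -0.68 ± 0.13 (SD, n = 4 pairs; 95% interval -0.86 to -0.49), 1.6-fold lower in Het, with SE 0.0791 and adjusted p = 0.0269. Of 14 alternatives 12 called it, with adjusted p from 0.0047 to 0.156. The exceptions were leaving out gastrocnemius pair 3 (-0.65, adjusted p = 0.121) or pair 4 (-0.74, adjusted p = 0.156), with which 0 genes of the whole array were called in gastrocnemius.

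In TA pairs 1 to 4 the Ache level was 9.07, 8.76, 8.71 and 8.34 in WT and 8.23, 8.27, 8.38 and 8.20 in Het. WT mice differed among themselves and Het mice did not differ much, so the ratios of -0.84, -0.49, -0.33 and -0.14 followed the WT level, and the lowest WT mouse lay within the Het range. The mean was -0.45 ± 0.298 (SD, n = 4 pairs), 1.37-fold lower in Het, with SE 0.11 and adjusted p = 0.0501. The call ended without TA pair 1 (-0.32, adjusted p = 0.199), without TA pair 2 (-0.44, adjusted p = 0.138), with Agilent's processed signals (-0.56, adjusted p = 0.135), and at a threshold of 0.05, within a range of 0.0406 to 0.199 over 14 alternatives, of which 10 kept it.

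The dimmer Ache probe gave the same direction in gastrocnemius and passed the test there as well. Its log2 ratios were -0.59, -0.33, -0.61 and -0.35 in gastrocnemius and -0.64, -0.22, 0.08 and -0.18 in TA. The means were -0.47 ± 0.149 (SD, n = 4 pairs, adjusted p = 0.0356) and -0.24 ± 0.299 (SD, n = 4 pairs, adjusted p = 0.199). Both probes share their dyes and arrays. The plot of levels by pair shows the parallel lines of Ache in gastrocnemius beside the crossing lines of Chrna1, Chrnd and Musk.

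**Figure D2:**
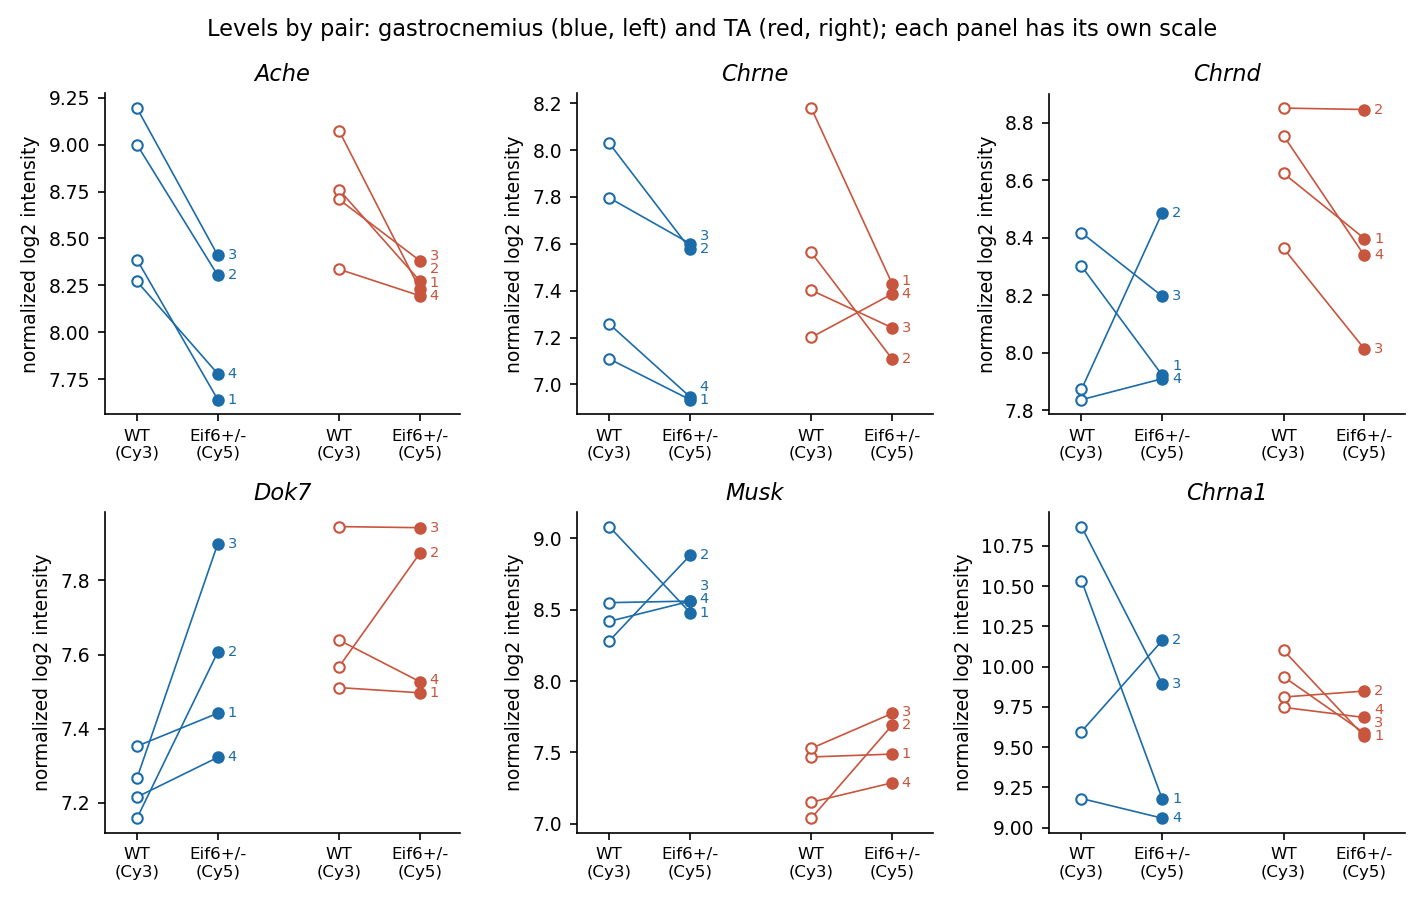
Normalized log2 intensity (vertical axis, own scale in each panel) of 6 members in WT (Cy3, open) and Eif6+/- (Cy5, filled), with a line joining the mice of a pair, in gastrocnemius (blue, left) and TA (red, right), and with the pair number beside the Eif6+/- mouse. The brighter Ache probe falls along all 8 lines, Musk sits higher in gastrocnemius than in TA in both genotypes, and the WT levels of Chrna1 in gastrocnemius span 9.18 to 10.87.

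The second question was whether the genotype effect differed between the muscles, a comparison in which a steady dye effect cancels. No member passed the threshold, and neither did any other gene. The limma test of the gastrocnemius ratio minus the TA ratio called 0 of 9 members and 0 of all 12194 genes (0%), with 996 genes and 0 members at an unadjusted p under 0.05. Differences of the members ran from -0.25 for Chrna1 to 0.28 for Dok7, with a median of 0.01 beside 0.01 for all genes. For Ache the difference was -0.23 (SE 0.145, 95% interval -0.55 to 0.09, adjusted p = 0.704), so the larger fall in gastrocnemius was not shown to differ from that in TA. For Chrne it was 0.01 (SE 0.176, adjusted p = 0.991), and for Dok7 it was 0.28 (SE 0.144, 95% interval -0.04 to 0.59, adjusted p = 0.661). A p that misses the threshold does not show that the muscles responded alike, and the intervals leave room for differences as large as the effects themselves.

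The third question was where the junction genes stood in the muscles themselves, apart from genotype. Musk was higher in gastrocnemius than in TA in both genotypes, and Dok7 and Chrnd were lower in gastrocnemius in WT. In WT 1 of 9 tested members was called higher in gastrocnemius and 2 lower (33.3%), beside 22.8% of all 11835 genes, 8.75% higher and 14.1% lower. In Het 1 of 9 was called, Musk (11.1%), beside 16.7% of 12609 genes. The median difference of the members was -0.04 in WT, beside -0.04 for all genes, and -0.10 in Het, beside -0.02. In WT the 2702 genes called became 1662 without gastrocnemius pair 3, 1764 without TA pair 2, 1693 without TA pair 3 and 1711 without TA pair 4. In Het the 2107 became 1070, 1226 and 1195 without gastrocnemius pairs 1, 2 and 4, and 977 and 1098 without TA pairs 1 and 2, and the members called became 2 without gastrocnemius pair 3.

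Musk levels did not overlap between the muscles in either genotype. The lowest WT gastrocnemius mouse (pair 2, 8.28) was 0.75 above the highest WT TA mouse (pair 3, 7.53), and the lowest Het gastrocnemius mouse (pair 1, 8.48) was 0.71 above the highest Het TA mouse (pair 3, 7.77). The WT means were 8.58 ± 0.35 in gastrocnemius and 7.30 ± 0.238 in TA (SD, n = 4 mice each), a difference of 1.29, or 2.44-fold (SE 0.175, adjusted p = 0.00385). In Het the means were 8.62 ± 0.178 and 7.56 ± 0.218 (SD, n = 4 mice each), a difference of 1.06, or 2.08-fold (SE 0.118, adjusted p = 0.00212). All 13 alternatives in each genotype called it, with adjusted p from 0.00335 to 0.0173 in WT and from 0.00144 to 0.0126 in Het. WT and Het mice of a pair share an array, so the genotypes are not separate sets of arrays.

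Dok7 lay the other way in WT. Its WT levels were 7.35, 7.16, 7.27 and 7.22 in gastrocnemius and 7.51, 7.57, 7.94 and 7.64 in TA, with no overlap and a smallest gap of 0.16. The difference was -0.42, or 1.34-fold lower in gastrocnemius (SE 0.103, adjusted p = 0.0303), and all 13 alternatives called it (0.025 to 0.0681). In Het, where the gastrocnemius levels were 7.44, 7.61, 7.90 and 7.32 and the TA levels 7.50, 7.87, 7.94 and 7.53, the muscles overlapped and the difference of -0.14 was not called (SE 0.138, adjusted p = 0.561, within 0.218 to 0.837 over 13 alternatives).

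Chrnd was also lower in WT gastrocnemius. The WT levels were 8.30, 7.87, 8.42 and 7.84 in gastrocnemius and 8.62, 8.85, 8.36 and 8.76 in TA, so that gastrocnemius pair 3 stood just above TA pair 3 and the groups otherwise parted. The difference was -0.54, or 1.46-fold lower (SE 0.154, adjusted p = 0.0478). The call ended without TA pair 2 (-0.47, adjusted p = 0.121), without TA pair 4 (-0.51, adjusted p = 0.114) and with the pair number as a replicate block (adjusted p = 0.116), within 0.0403 to 0.121 over 13 alternatives. In Het the levels were 7.92, 8.49, 8.20 and 7.91 in gastrocnemius and 8.40, 8.85, 8.01 and 8.34 in TA. They overlapped, and the difference of -0.27 was not called (SE 0.174, adjusted p = 0.359).

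The other 6 tested members were not called between the muscles. Chrnb1 came nearest, at -0.23 in WT (SE 0.0868, adjusted p = 0.113) and -0.19 in Het (SE 0.0712, adjusted p = 0.12). Without gastrocnemius pair 3 both were called, at -0.29 (adjusted p = 0.0746, within 0.0746 to 0.226 over 13 alternatives) and -0.23 (adjusted p = 0.0799, within 0.0208 to 0.257). Ache, Chrne and Rapsn had differences of -0.01, -0.04 and 0.00 in WT (SE 0.22, 0.242 and 0.157) and of -0.24, -0.03 and 0.01 in Het (SE 0.156, 0.16 and 0.119, adjusted p = 0.37, 0.939 and 0.96). Lrp4 was at -0.12 (SE 0.102, adjusted p = 0.464) and Chrna1 at 0.15 (SE 0.316, adjusted p = 0.796), and in Het they were at 0.01 and -0.10.

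Markers of other cells differed between the same muscles. In WT 6 of 7 slow fibre markers were higher in gastrocnemius (median difference 2.12), as were 3 of 3 fat cell markers tested (2.38), 3 of 4 fibroblast markers (1.08), 1 of 10 Schwann cell markers and 1 of 3 macrophage markers, beside 8.75% of all genes. In Het 7 of 7 slow fibre markers (2.30), 8 of 10 Schwann cell markers (0.53) and 2 of 3 fat cell markers (1.54) were higher. Of macrophage markers 1 of 3 was higher, and of fibroblast markers 0 of 4. These Het counts stand beside 849 of all 12609 genes higher. Lower in gastrocnemius were 2 of 9 fast fibre markers in WT, Myh1 and Mb, beside 14.1% of all genes. In Het 1 of 9 fast fibre markers was lower and 1 of 9 higher. Also lower in Het were 1 of 3 motor neuron and 1 of 3 endothelial markers, beside 1258 of all 12609 genes lower. Of satellite cell markers 0 of 3 were called in either genotype. The part of these cells in the differences of Musk, Dok7 and Chrnd between muscles was not tested.

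How the members varied together from array to array is given as a description. Chrna1, Musk and Chrnd swung in the same pairs: of the 4 gastrocnemius pairs, pair 1 had the lowest ratio of each and pair 2 the highest. In TA pair 2 again had the highest ratio of each and pair 1 the lowest of Chrna1 and Musk, while Chrnd was lowest in pair 4 (-0.42). Over the 8 arrays Pearson's r of the log2 ratios was 0.888 for Chrna1 with Musk (Spearman's rho 0.881, 0.885 with each muscle's mean removed). It was 0.704 for Chrna1 with Chrnd (rho 0.5, 0.9 within muscles) and 0.634 for Chrnd with Musk (rho 0.548, 0.888 within muscles). Without the 2 arrays farthest from the median of Chrna1, its r was 0.658 with Musk and 0.257 with Chrnd, so the relation with Chrnd rested on those arrays.

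Other members went their own way. Rapsn ran against Chrna1 at r = -0.608, which became 0.155 without the 2 arrays, and Chrne ran with Rapsn at 0.715 (0.613 without the 2 arrays farthest from the median of Chrne) and with Ache at 0.687 (-0.032 without them). Lrp4 ran against Chrna1 at -0.673 (-0.455 without 2 arrays). Dok7 had r = 0.033 with Chrna1 (-0.574 without 2 arrays), and Ache had 0.401 (0.7 without them). The points of each correlation share arrays, dyes and normalization, and 45 pairs of members were looked at, of which those with Chrng are not given because it was too dim. The plot of Chrna1 against Musk, Chrnd and Rapsn shows gastrocnemius pairs 1 and 2 at opposite ends.

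**Figure D3:**
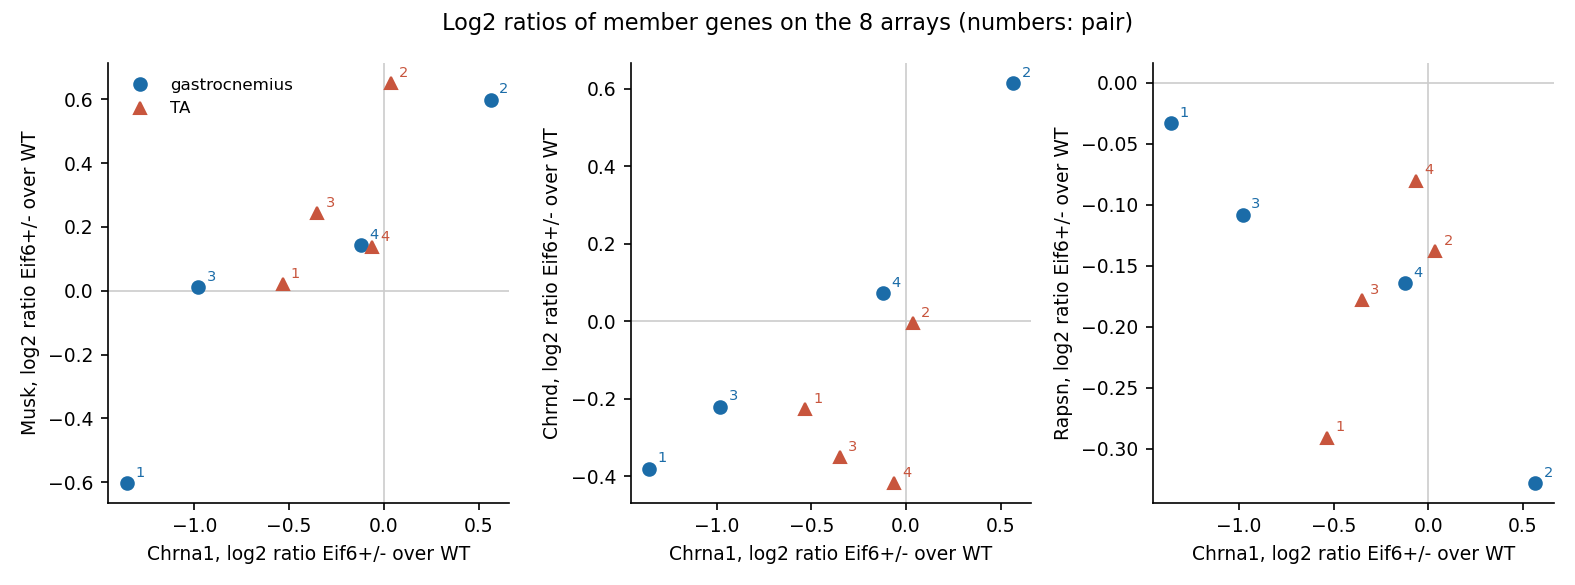
Log2 ratio of Eif6+/- over WT for Chrna1 (horizontal axes) against Musk, Chrnd and Rapsn (vertical axes) on the 8 arrays, with gastrocnemius pairs as blue circles and TA pairs as red triangles, each numbered by pair. For Musk the points run from -1.36 and -0.60 in gastrocnemius pair 1 to 0.56 and 0.60 in gastrocnemius pair 2, while for Rapsn the same pairs lie at -0.03 and -0.33.

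By the highest Pearson's r over the 8 arrays among 12193 other genes, the genes most like Chrna1 were Nol12 (0.984), Tmem51 (0.943), Tor2a (0.94), 2410006H16Rik (0.935) and Cd55 (0.934), with Musk at place 33 and Chrnd at place 604. Those most like Musk were Ttyh1 (0.98), Stbd1 (0.973), Gm13889 (0.966), 2410006H16Rik (0.956) and Cd55 (0.954), with Chrna1 at place 63.

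Slow fibre markers swung on the same gastrocnemius arrays. The summed intensity of the 7 markers, of which Myl3 is the most abundant, had log2 ratios of 3.22, -1.09, 0.19 and -0.18 in gastrocnemius pairs 1 to 4 and 0.01, -0.52, -0.06 and -1.45 in TA. Gastrocnemius pair 1, lowest for Chrna1 and Musk, was highest for this sum, and pair 2, highest for both, was lowest. In WT the sum was 14500, 65010, 41200 and 153700 in gastrocnemius and 12120, 34660, 10360 and 38230 in TA. The summed Schwann cell markers (10 genes, Pmp22 most abundant) had log2 ratios of -0.28, -0.21, -0.01 and 0.21 in gastrocnemius and -0.17, -0.50, -0.13 and -0.45 in TA, with gastrocnemius pair 1 lowest and pair 4 highest. Of 12 listed motor neuron and axon markers only 4 were bright enough to be summed, with Snap25 most abundant, so the sum leaves out most of the list. This sum was, like the slow fibre markers, highest in gastrocnemius pair 1 and lowest in pair 2. Its log2 ratios were 0.39, -0.30, -0.05 and 0.14, and lay at -0.05, -0.05, 0.13 and 0.01 in TA. Fast fibre markers (9 genes, Mb among them, Pvalb most abundant) had the same ends over a narrower range, at 0.19, -0.02, 0.12 and -0.01 in gastrocnemius and 0.07, -0.18, -0.21 and 0.01 in TA. Macrophage markers (3 genes, Csf1r most abundant) were lowest in gastrocnemius pairs 1 and 3, as Chrna1 was, at -0.92, -0.06, -1.36 and -0.20, and lay at 0.23, -0.65, 0.03 and -0.10 in TA. In the sums for satellite cells, fat, fibroblasts and endothelium, gastrocnemius pairs 1 and 2 were not at opposite ends. The part of any of these cell types in the members' values was not tested.

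Lists of related genes show what surrounds the members in the pathway. Signals and partners of the synapse lay on both sides of 0. In gastrocnemius 4 of 21 tested rose and 0 fell, beside 9.87% and 5.54% of all genes: the phosphatase Ptpn11 (0.43, adjusted p = 0.0438), the kinase Cdk5 (0.32, 0.0895), agrin itself, Agrn (0.29, 0.0694), and Gabpa, which encodes the N-box binding factor (0.27, 0.0863). In TA 3 of 21 rose, beside 8.99% of all genes, Cdk5 (0.30, 0.0519), Agrn (0.24, 0.0992) and Ptpn11 (0.24, 0.099), and Crkl, an adaptor bound by DOK7, fell (-0.23, 0.0972). Each of these genes had 4 of 4 pairs in its direction in the muscle where it was called. The list's medians were -0.01 and 0.04. Nrg1, Erbb3, Erbb4 and Src were well above background on 0 of 8 arrays in either dye.

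Scaffold, channel and basal lamina genes went both ways. In gastrocnemius 3 of 19 tested fell, beside 5.54% of all genes, the dystroglycan gene Dag1 (-0.57, adjusted p = 0.0333), the laminin gene Lama4 (-0.48, 0.0579) and the sodium channel gene Scn4a (-0.45, 0.0765), and Dmd rose (0.27, 0.0812). In TA 3 of 18 fell, beside 7.29%, and 0 rose: Scn4a (-0.43, 0.0524), Dag1 (-0.39, 0.0292) and the synaptic laminin gene Lamb2 (-0.39, 0.0351). Medians were -0.13 and -0.12, beside 0.02 for all genes in both muscles. Of the 5 glycosylation genes behind inherited myasthenic syndromes, Alg2 rose in both muscles (0.33, adjusted p = 0.0583, and 0.44, 0.0263) and 4 were not called in either. The shares of all genes higher in Het were 9.87% in gastrocnemius and 8.99% in TA.

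Genes listed as rising when a muscle loses its nerve had no shared direction. The counts and medians of this list include Hdac9, which does not belong to the genes known to rise in that way. These counts stand beside 9.87% of all genes higher and 5.54% lower in gastrocnemius and 8.99% and 7.29% in TA. In gastrocnemius 2 of 13 rose, the perinatal myosin Myh8 (0.46, adjusted p = 0.0543) and Hdac9 (0.44, 0.0649), and 0 fell. In TA 3 of 13 rose, Myh8 (0.86, 0.0135), Myog (0.42, 0.0879) and Hdac9 (0.34, 0.0448), and 2 fell, Ncam1 (-0.28, 0.0729) and Cdkn1a (-0.24, 0.0891). The medians were -0.22 and -0.07. Chrna1 and Musk, which also belong to the genes that loss of the nerve raises, were not called in either muscle, and Chrng, another, was too dim for the filter. The other nicotinic subunits and butyrylcholinesterase, 12 genes outside the muscle receptor, were mostly too dim for the filter. Of these, 4 were tested in gastrocnemius and 3 in TA, with 0 called. Chrna4, Chrna5, Chrna7, Chrnb2 and Chrnb3 were well above background on 0 of 8 arrays in either dye.

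Of the cells around the junction, Schwann cell markers fell in TA for 5 of 10 genes (beside 7.29% of all genes), among them Ncmap (-0.51, adjusted p = 0.0141), Prx (-0.44, 0.0267), S100b (-0.35, 0.0984) and Mbp (-0.21, 0.0875). None of the 10 was called in gastrocnemius, and 0 of 10 were called for a difference in genotype effect between the muscles. Counts for the other cells stand beside the same shares of all genes as given for the denervation genes. Motor neuron and axon markers had 0 called of 4 tested in gastrocnemius and 0 of 3 in TA. Fast fibre markers had 1 up, Myh1 (0.96, 0.052), and 2 down, Ckm (-0.37, 0.0579) and Actn3 (-0.36, 0.057), of 9 in gastrocnemius, and 1 up, Myh4 (0.80, 0.0118), and 1 down, Mb (-0.54, 0.0656), in TA. Mb is not particular to fast fibres, so its lower value is not read as a fall of fast fibre genes. Slow fibre markers had 0 of 7 called in gastrocnemius and 3 down in TA, Tnnt1 (-0.90, 0.0236), Tnni1 (-0.80, 0.0245) and Tnnc1 (-0.41, 0.035). Among satellite cell, macrophage, fat, fibroblast and endothelial markers the calls were Cd74 (-1.10, 0.0447) and Adipoq (-0.64, 0.0996) down in gastrocnemius, and in TA Pecam1 down (-0.32, 0.0649) with Cidec (0.60, 0.0707) and Plin1 (0.51, 0.079) up. The plot of mean ratios by list sets the members beside these genes.

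**Figure D4:**
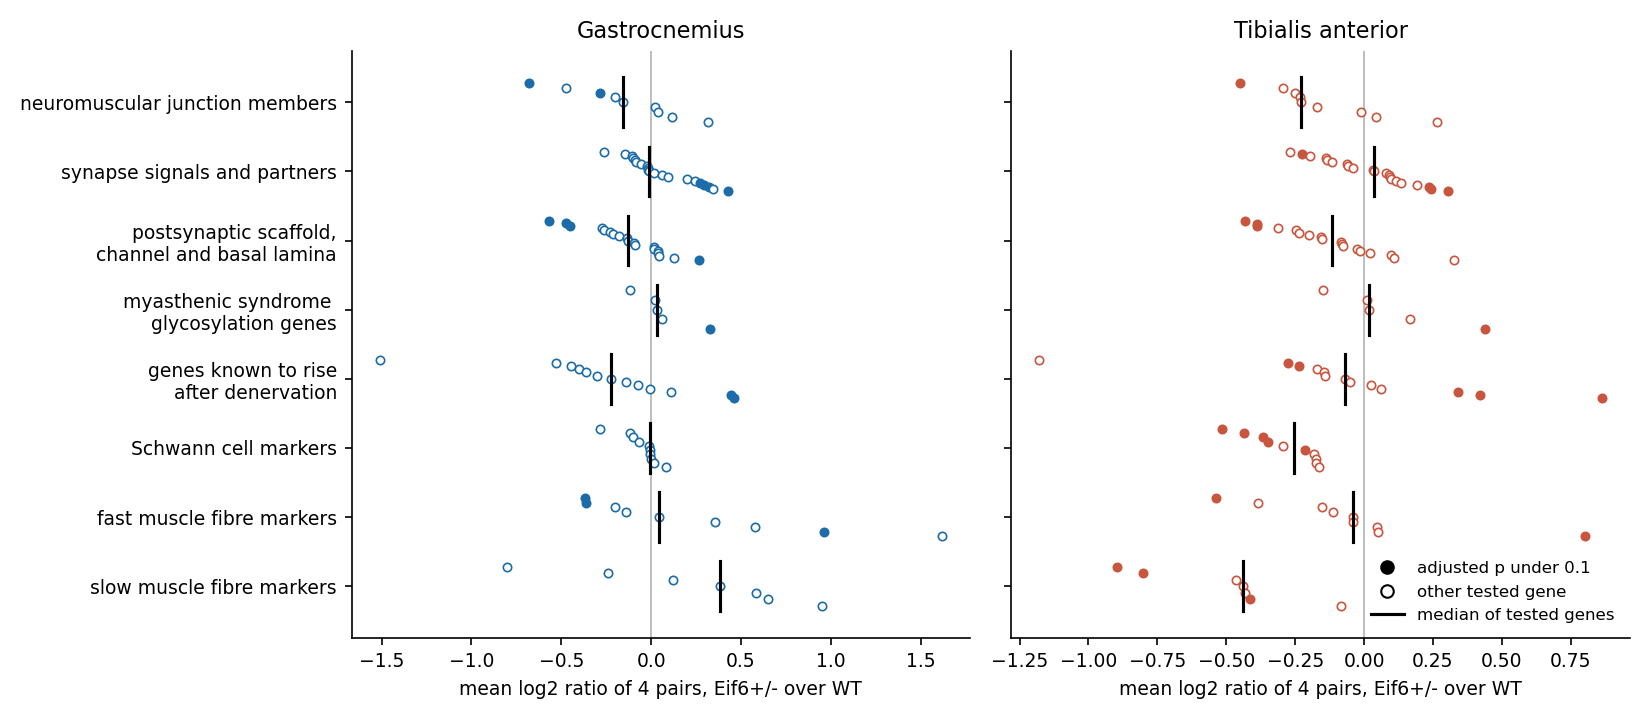
Mean log2 ratio of Eif6+/- over WT for each tested gene (horizontal axis) in 8 lists (vertical axis), in gastrocnemius (left) and TA (right), filled where the adjusted p was under 0.1, with a black line at each list's median. The line of the members lies at -0.16 and -0.23, that of the synapse signals at -0.01 and 0.04, and that of the Schwann cell markers at -0.01 and -0.25. The denervation list as drawn includes Hdac9, which is not among the genes known to rise. The fast fibre list includes Mb, which is not particular to fast fibres.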

How the data were processed

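Values were read from the deposited Agilent Feature Extraction 10.5.1.1 files, which per the file headers hold the median intensity and background intensity of each spot in both dyes. Spots called non-uniform or population outliers were left out (233 to 318 an array). Background was taken off by normexp (offset 50), dyes were balanced by loess on each array (control spots at weight 0), the 16 channels were quantile normalized, and spots of a probe were averaged, in R 4.3.3 with limma 3.58.1. Log2 ratios are Cy5 over Cy3. A probe was tested when at least a share of 0.5 of its spots was well above background in Cy3 or in Cy5 on all 4 arrays of the muscle, which kept 23790 probes in gastrocnemius, 23383 in TA and 22757 for the difference, and 21509 (WT) and 23920 (Het) for the comparisons of muscles. limma tested the mean of 4 log2 ratios against 0, the difference between muscles over 8 arrays, and the log2 intensity of 1 dye between muscles, in both directions, with Benjamini-Hochberg adjustment over all probes tested and a threshold of 0.1. Each gene is represented by the brightest of its probes over all arrays, and 27235 of 28685 probes with a RefSeq accession could be given a gene name.

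The authors' table holds, as the deposited log2 ratios show, log2 of Cy5 over Cy3 after loess of uncorrected intensities (r = 0.999961 to 0.999996 with that calculation), with medians of 0.00257, 0.000831, -0.00441 and 0.00375 in gastrocnemius pairs 1 to 4 and 0.00138, -0.000366, 0.00288 and 0.00212 in TA. The alternatives for every comparison were no background correction, processed signals, no filter, any probe of a gene, and each array left out. For genotype and its difference they were also loess alone, quantiles alone, offset 0, the authors' log2 ratios and both dyes well above background. Genotype within a muscle had SAM and a threshold of 0.05 as well, levels between muscles had loess then Aquantile, and all comparisons between muscles had the pair number as a replicate block. Named genes are all members, and from each list the called genes, up to the 5 with the largest log2 ratio in each muscle, and defining markers not above background. The members and lists were chosen with earlier results of these data known. The tests were checked on simulated data. Figures were drawn with Python 3.11.15 and matplotlib 3.10.9.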

Additional observations from a re-analysis of the deposited data

How the results depend on the processing

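The counts and the 9 tested members were computed again under the alternatives planned for each comparison (list genes, correlations, Eif6 and the dimmer probes were not), and for the members 556 of the values kept their direction and their side of the threshold, 18 passed it only then, 13 no longer passed and 52 changed direction. For counts, 115 stayed within 1.5 times and 37 did not. The changes of direction were all in means that had not passed the threshold. With loess alone the mean was 0.019 for Lrp4 in TA, and the difference between muscles -0.005 for Chrnb1 and -0.029 for Chrne. With offset 0 the Chrne difference was -0.007. With processed signals Chrnd was at -0.020 in gastrocnemius, the differences were -0.033 for Chrnb1 and -0.048 for Chrne, and Rapsn in Het gastrocnemius over TA was at -0.181. With the authors' log2 ratios Lrp4 was at 0.035 in TA and the differences -0.001 for Chrnb1 and -0.012 for Chrne. With loess then Aquantile Lrp4 in Het was at -0.014. Leaving out each array in turn moved gastrocnemius means from -0.176 to 0.156 for Chrnd and -0.15 to 0.251 for Musk, and TA means from -0.043 to 0.096 for Dok7 and -0.116 to 0.107 for Lrp4. It moved the difference between muscles from -0.592 to 0.049 for Chrna1, -0.028 to 0.081 for Chrnb1, -0.14 to 0.172 for Chrne and -0.028 to 0.07 for Rapsn. Between WT muscles it gave -0.128 to 0.434 for Chrna1, -0.199 to 0.159 for Chrne, -0.09 to 0.142 for Rapsn and -0.167 to 0.141 for Ache, and between Het muscles -0.296 to 0.071 for Chrna1, -0.139 to 0.084 for Chrne, -0.068 to 0.116 for Rapsn and -0.074 to 0.12 for Lrp4. Counts of called genes became 1210 in TA with offset 0, and with processed signals 1203 in gastrocnemius, 841 in TA, 1 for the difference and 3907 in Het, with 0 members in TA and 2 in Het. Members called in Het were 2 with loess then Aquantile. With no filter 4 members were called in gastrocnemius beside 2075 genes in all, and 4 in TA beside 2734. Chrng was among them each time (limma adjusted p = 0.0646 and 0.0644), and 1 gene was called for the difference. SAM called 4 members in gastrocnemius and 3 in TA. The share of all genes that SAM called is not given here, so these counts are not read as a result about the members. At an adjusted p under 0.05 limma called 626 genes and 1 member (Ache) in gastrocnemius and 837 genes and 0 members in TA. Without 1 array, called genes ran from 0 to 1769 in gastrocnemius (0 without pair 3 or pair 4, members 0 to 3), 68 to 2018 in TA (68 without pair 1, members 0 to 2), 1662 to 2730 in WT and 977 to 2370 in Het (members 1 to 2). The replicate block left 2 members called in WT, with Chrnd at adjusted p = 0.116. It takes mice of the same number as paired across the muscles, but same-numbered arrays had r = -0.145, 0.019, -0.356 and 0.09 for log2 ratios, -0.376, 0.114, -0.071 and 0.192 for WT levels and 0.187, 0.015, 0.023 and 0.153 for Het levels. Apart from fewer arrays and other probes tested, the cause was not tested. Signal over background limits Chrng, where the Het dye was near background on nearly all arrays and the calls with no filter give no size.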
